A study of Mus musculus with 6 samples.

Results

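Matricellular proteins and the adhesive glycoproteins they work with were followed here in bulk RNA-seq of tumors from mice given GB2 or PBS. The 10 genes are Thbs1, Thbs2 and Thbs3 (thrombospondins), Tnc and Tnxb (tenascins), Postn (periostin), Sparc (osteonectin), Fn1 (fibronectin), and Ccn1 and Ccn2 (CCN proteins). They were chosen by name, with fold changes from the same 6 tumors already known, so their GB2 against PBS values are given as a description and support nothing by themselves. The table holds 33965 genes, of which 19602 passed the filter on low counts. All 10 genes were found and 10 of 10 passed it, with counts of 164 or more in each tumor.

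The tumors were grown under the skin of female C57BL/6 mice and are labelled MC38, a mouse colon carcinoma line. PBS, the vehicle, was given to 3 of the mice and GB2 to the other 3. GB2 is a prodrug in which a disulfide bond joins MSA-2, an agonist of the innate immune sensor STING, to artesunate, used as an inhibitor of the macrophage receptor TREM2. The dose of the sequenced tumors is not given separately in the sources used here, and the comparison asks how whole tumor RNA differs after GB2. The labels number the tumors but do not say how the animals were caged or sampled, so the p-values measure the spread between these 6 samples.

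Matricellular proteins are secreted into the extracellular matrix but act on cells more than they build fibers. They bind integrins, heparan sulfate, growth factors and proteases, are scarce in most resting adult tissue, and appear in wounds, fibrosis and tumor stroma, where fibroblasts are a main source. Fibronectin is a structural matrix protein to which several of them bind. CCN1 and CCN2 are also textbook targets of the YAP/TEAD and SRF transcription factors and so are often read as a sign of mechanical signalling.

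The 6 libraries held 64764405 to 83690056 counts, the 3 GB2 libraries being the largest, with TMM factors of 0.914 to 1.04. The tumors of a group differed by a biological coefficient of variation of 40.5%. In edgeR, no gene was at least 2-fold different with a Benjamini-Hochberg adjusted p under 0.05 (0% of the genes tested, the smallest adjusted p being 0.166), while 1360 genes had an unadjusted p under 0.05. Using DESeq2 in place of edgeR, 380 genes passed the same limits. The 7 epithelial genes checked against the label were low. Epcam, an epithelial adhesion molecule, lay between 0.170 and 1.01 CPM (counts scaled to the library total times its TMM factor), the keratin gene Krt8 between 0 and 2.40 CPM, and the highest of the 7, Vil1 and Cdh1, reached 5.32 and 3.99 CPM. Pigment cell genes were instead among the most abundant per length. Among the 33965 genes ranked by mean FPKM, a level per transcript length, Tyrp1 was at 16, Pmel at 19 and Dct, a melanin synthesis enzyme, at 36. Dct had 4097 to 8046 CPM. The sum of 10 pigment genes, a list added after the data were seen, was 17040, 16990 and 11780 CPM in the PBS tumors and 17670, 19580 and 13700 CPM in the GB2 tumors. The origin of the tumors was not tested, and they are called here tumors labelled MC38.

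Across the 10 genes, the levels of Thbs2, Tnc and Postn were 4.03 to 5.82 times as high on average in the GB2 tumors as in the PBS tumors, Thbs1 was higher by a smaller margin, and Ccn1 and Ccn2 were close to equal. The log2 fold change was above 0 for 8 genes and below 0 for 2, with a median of 0.54 and a range of -0.24 to 2.54, beside a median of -0.02 over all genes tested. The median was 0.27 without PBS tumor 1 and 0.87 without PBS tumor 2. Of the 10 genes, 3 had an unadjusted p under 0.05 with at least a 2-fold higher level, against 3.74% of the genes tested, and 0 had one with at least a 2-fold lower level, against 0.918%. Each GB2 tumor lay above each PBS tumor for 5 genes (Thbs1, Thbs2, Tnc, Tnxb and Postn), against 8.61% of the genes tested, and the reverse held for 0, against 6.68%. Because the same contrast was known when the genes were chosen, nothing is read from these counts. In whole tumor RNA, a different number of cells of a type and a different amount of RNA per cell cannot be told apart.

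**Figure D1:**
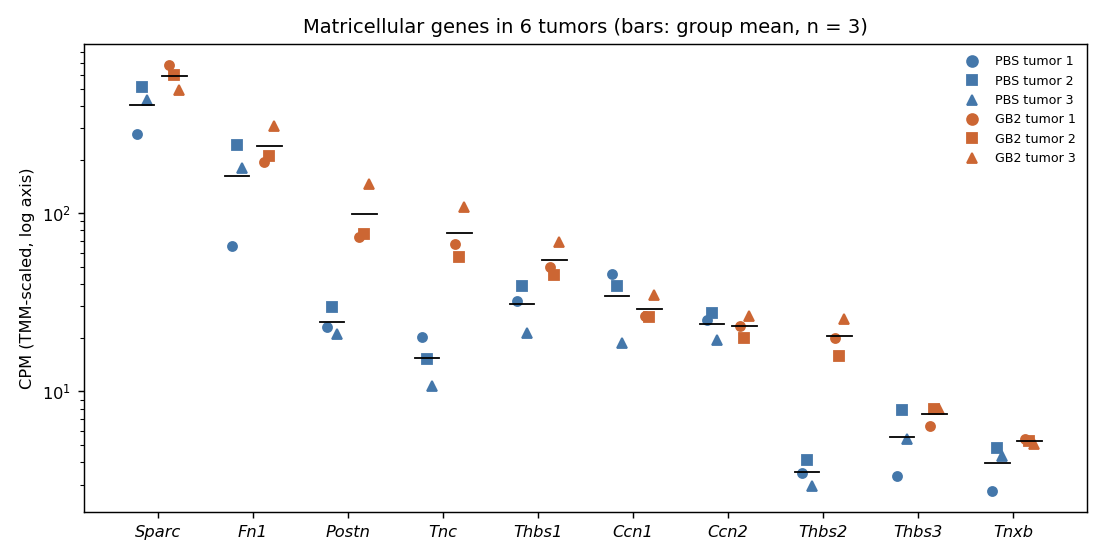
Level of each of the 10 genes in each tumor, in CPM on a log axis, with 1 point per tumor and a bar at the group mean (3 PBS and 3 GB2 tumors). Thbs2, Tnc and Postn show wide gaps between the groups, whereas the points of Sparc, Fn1, Thbs3, Ccn1 and Ccn2 overlap.

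Thbs2 encodes thrombospondin-2, a trimeric glycoprotein that inhibits blood vessel growth through CD36 and shapes collagen fibrils. Its level was 3.48, 4.12 and 2.94 CPM in the PBS tumors and 20.0, 15.8 and 25.6 CPM in the GB2 tumors. The groups did not overlap, and the lowest GB2 tumor was 3.84 times the highest PBS tumor. The group means were 3.51 ± 0.587 and 20.5 ± 4.92 CPM (SD, n = 3 each), a log2 fold change of 2.54 ± 0.27 (SE). It had the smallest p but 1 of all genes tested in edgeR (2.2e-05, adjusted p 0.186).

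Tnc encodes tenascin-C, a large glycoprotein that is sparse in healthy adult tissue and loosens the adhesion of cells to fibronectin. The PBS tumors held 20.1, 15.1 and 10.7 CPM of Tnc, and the GB2 tumors 67.2, 56.8 and 108 CPM. Again the groups were apart, with the lowest GB2 tumor at 2.83 times the highest PBS tumor. The means were 15.3 ± 4.68 and 77.4 ± 27.2 CPM (SD, n = 3 each), and the log2 fold change was 2.34 ± 0.33 (edgeR adjusted p 0.186).

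Postn encodes periostin, a fasciclin domain protein of fibroblasts that binds integrins and helps collagen cross-linking. Its levels were 22.9, 29.6 and 21.0 CPM with PBS and 73.2, 76.7 and 146 CPM with GB2. GB2 tumor 3 stood highest, as it did for Thbs2 and Tnc, and the lowest GB2 tumor was still 2.47 times the highest PBS tumor. The means were 24.5 ± 4.52 and 98.6 ± 41.0 CPM (SD, n = 3 each), a log2 fold change of 2.01 ± 0.31 (edgeR adjusted p 0.186). In DESeq2, which adjusts over 21963 genes, these 3 were the only genes of the 10 to pass, with adjusted p of 1.17e-13 (Thbs2), 4.89e-08 (Tnc) and 1.83e-06 (Postn), where 1.57% of the genes tested passed in this direction.

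The sequences before the start sites of these 3 genes are shown because these were the genes of the 10 with at least a 2-fold higher mean level in the GB2 tumors, and that of Ccn1, whose groups overlapped, is shown for comparison. They are RefSeq windows on GRCm38.p6, of which 7 of the 10 genes have at least 1 (9 windows in all), and the 250 bases before the start are printed 5′ to 3′ on the strand of the gene. Tnc and Postn have a pair of windows each, and the one shown is the first for Tnc and the second for Postn. Thbs1, Fn1 and Ccn2 have none. The bases of Thbs2 lie at chr17:14694263-14694512 (minus strand), those of Tnc at chr4:64047016-64047265 (minus), those of Postn at chr3:54360857-54361106 (plus) and those of Ccn1 at chr3:145649986-145650235 (minus). Capitals mark matches to TATAAA or GGAATG on either strand.
Thbs2: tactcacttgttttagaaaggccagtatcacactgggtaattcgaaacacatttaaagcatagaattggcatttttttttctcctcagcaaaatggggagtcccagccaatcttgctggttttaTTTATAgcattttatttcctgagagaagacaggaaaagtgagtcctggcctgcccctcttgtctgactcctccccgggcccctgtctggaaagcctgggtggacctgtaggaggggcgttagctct
Tnc: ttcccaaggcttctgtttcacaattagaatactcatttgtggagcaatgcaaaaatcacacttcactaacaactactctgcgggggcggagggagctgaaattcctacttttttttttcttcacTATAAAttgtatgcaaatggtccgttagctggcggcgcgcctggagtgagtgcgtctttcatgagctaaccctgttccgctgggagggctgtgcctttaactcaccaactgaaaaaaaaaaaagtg
Postn: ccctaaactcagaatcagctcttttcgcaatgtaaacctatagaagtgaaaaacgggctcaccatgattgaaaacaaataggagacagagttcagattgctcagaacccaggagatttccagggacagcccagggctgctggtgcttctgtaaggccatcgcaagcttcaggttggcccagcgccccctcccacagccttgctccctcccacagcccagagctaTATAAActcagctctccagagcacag
Ccn1: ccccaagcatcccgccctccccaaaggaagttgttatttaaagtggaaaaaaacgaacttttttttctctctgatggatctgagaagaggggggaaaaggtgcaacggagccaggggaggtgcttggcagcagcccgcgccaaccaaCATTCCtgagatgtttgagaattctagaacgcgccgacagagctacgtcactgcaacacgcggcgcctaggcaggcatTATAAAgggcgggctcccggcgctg

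The TATA box letters TATAAA began 26 bases before the start (position -26) in the printed Postn window and were not in the other Postn window. They were at -25 in Ccn1, at -126 in Thbs2 (on the opposite strand) and at -126 in the printed Tnc window, which is -205 in the other. Of 32851 windows of the same 300 bases, 13.6% hold them. GGAATG, the letters bound by TEAD factors, was found in the Ccn1 window alone among the 9 (at -103, as CATTCC), beside 14.7% of all windows. The AP-1 letters TGANTCA were found once, at -55 of Tnxb (7.81% of all windows). None of the 9 windows held a CArG box, the SRF element (1.63% of all windows), the NF-kB letters GGGNNTTCC (5.82%) or the STAT letters TTCNNNGAA (8.30%). A match describes the letters of this window and is neither a bound site nor a cause.

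Thbs1 encodes thrombospondin-1, which activates latent TGF-beta, binds CD47 and CD36 and is also stored in platelets. Its level was 32.2, 38.9 and 21.2 CPM in the PBS tumors and 50.1, 45.1 and 68.8 CPM in the GB2 tumors. The groups did not overlap, but the gap between PBS tumor 2 and GB2 tumor 2 was small beside the spread within each group. The means were 30.8 ± 8.92 and 54.7 ± 12.5 CPM (SD, n = 3 each), with a log2 fold change of 0.83 ± 0.27 (edgeR adjusted p 0.541). The summed CPM of 8 platelet markers was 6.53, 4.27 and 3.00 with PBS and 6.22, 4.42 and 6.93 with GB2, so the groups overlapped, and 4 of the 8 markers passed the filter.

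Thbs3 encodes a pentameric thrombospondin that is best known from cartilage and bone. It was low in all tumors, at 3.33, 7.85 and 5.38 CPM with PBS and 6.40, 7.98 and 7.94 CPM with GB2. The groups overlapped, and the log2 fold change of 0.43 ± 0.34 was close to its error. It was 0.18 without PBS tumor 1 and 0.77 without PBS tumor 2. Thbs3 lies within the span of Mtx1 on the opposite strand (11658 shared bases). Mtx1 had means of 51.0 CPM with PBS and 43.6 CPM with GB2. The libraries were strand-marked, and whether the counting used strand is not given in the sources used here, so reads of the pair may be shared.

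Tnxb encodes tenascin-X, the tenascin of adult connective tissue, whose loss loosens collagen in skin and joints. The PBS tumors held 2.77, 4.80 and 4.34 CPM of it, and the GB2 tumors 5.42, 5.29 and 5.08 CPM. Although each GB2 tumor lay above each PBS tumor, the lowest was only 1.06 times the highest, and the log2 fold change was 0.41 ± 0.29. This fold change was 0.22 without PBS tumor 1 and 0.57 without PBS tumor 2. The 2 tenascins of the set thus differed by 2.34 and 0.41 on the log2 scale, and the difference between them was not tested.

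Sparc encodes osteonectin, a collagen-binding glycoprotein needed for fibril assembly. It was the most abundant of the set, per length as well, at 277, 510 and 435 CPM with PBS and 677, 598 and 494 CPM with GB2. PBS tumor 2 lay above GB2 tumor 3, so the groups overlapped, and the log2 fold change was 0.53 ± 0.26. Without PBS tumor 1 the value for Sparc was 0.33, and without PBS tumor 2 it was 0.73. Fn1, the fibronectin gene, had 65.7, 242 and 179 CPM with PBS and 194, 208 and 310 CPM with GB2. PBS tumor 1 stood far below the others, the groups overlapped, and the log2 fold change of 0.55 ± 0.44 became 0.19 without that tumor and 0.96 without PBS tumor 2. PBS tumor 1 was also the lowest of its group for Sparc, Thbs3 and Tnxb. Sparc made up 40.2% to 60.6% of the summed CPM of the 10 genes in a tumor, and without it the sum was 221, 409 and 282 CPM with PBS and 466, 462 and 733 CPM with GB2.

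Ccn1 encodes a secreted integrin ligand of wound healing and vessel growth. Its level was 45.8, 39.0 and 18.6 CPM with PBS and 26.6, 26.2 and 34.8 CPM with GB2. The GB2 tumors lay within the PBS range, with a log2 fold change of -0.24 ± 0.33, which was 0.03 without PBS tumor 1. Ccn2 encodes connective tissue growth factor, a cofactor of TGF-beta in fibrosis. It held 25.0, 27.6 and 19.4 CPM with PBS and 23.4, 20.0 and 26.4 CPM with GB2. These ranges nearly coincided, with a log2 fold change of -0.05 ± 0.21. Its sign turned in 4 of the alternatives and is not a direction.

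The edgeR adjusted p of the 10 genes ran from 0.186 to 0.956. In the PBS group, tumor 2 had the highest level of 8 genes and tumor 3 the lowest of 6, and in the GB2 group tumor 3 had the highest of 7. Over all genes tested, PBS tumor 3 was the lowest of its group for 35.5%, and PBS tumor 1, the lowest for 4 of the 10, for 41.0%. The share of all genes for which a tumor was the highest of its group was not computed, so nothing is read from the counts of highest levels. These counts are descriptions of 3 tumors a group.

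**Figure D2:**
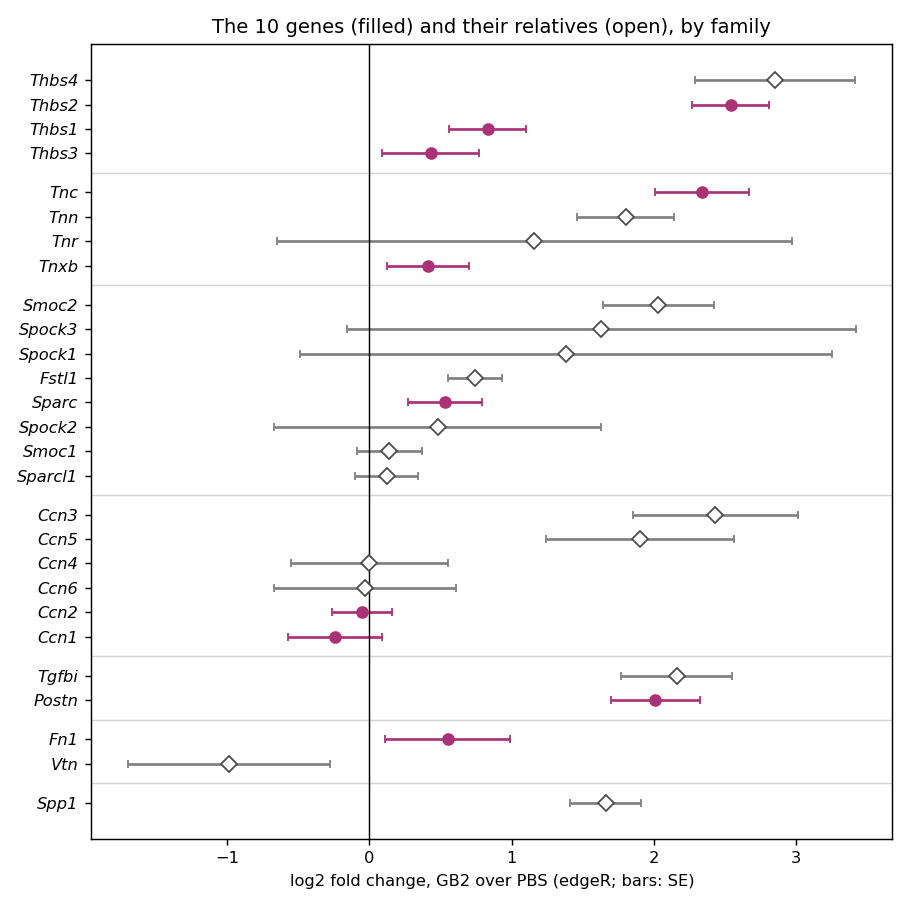
Log2 fold change of GB2 over PBS tumors from edgeR, with bars of 1 SE, for the 10 genes (filled) and their tested relatives (open), by family. The CCN family holds both large and near-zero differences, with Ccn3 at 2.43 and Ccn2 at -0.05, whereas both fasciclin domain genes lie above 2.

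Levels can be compared between genes per length, in length- and depth-scaled fragments (FPKM). In the PBS tumors the order of the means was Sparc (101 FPKM), Ccn1 (15.7), Fn1 (13.2), Ccn2 (7.78), Thbs1 (4.70), Postn (2.62), Tnc (1.81), Thbs3 (1.07), Thbs2 (0.466) and Tnxb (0.277). In the GB2 tumors it was Sparc (153 FPKM), Fn1 (19.9), Ccn1 (14.2), Postn (11.1), Tnc (9.80), Thbs1 (8.84), Ccn2 (7.96), Thbs2 (2.87), Thbs3 (1.50) and Tnxb (0.382). Neighbours whose tumors overlapped in FPKM were Ccn1 and Fn1, Fn1 and Ccn2, and Tnc and Thbs3 with PBS, and each neighbouring pair from Fn1 down to Ccn2 with GB2. Sparc stood apart at the top and Tnxb at the bottom in both groups. Among the genes tested, Tnc lay at percentile 44.5 of mean FPKM with PBS and 74.3 with GB2, Postn at 49.8 and 76.9, and Thbs2 at 28.3 and 50.7.

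The annotation in the table places 10 of 10 genes in the extracellular region, a term held by 7.22% of the 15592 annotated genes tested. It gives heparin binding to 8 of them (0.795% of annotated genes), cell adhesion to 8 (2.85%) and calcium ion binding to the 3 thrombospondins and Sparc. Integrin binding is listed for Thbs1, Fn1, Ccn1 and Ccn2, and negative regulation of angiogenesis for Thbs1, Thbs2 and Sparc. By the positions of the table, whose genome build could not be settled, Thbs1 lies at chr2:117942357-117957614 (plus strand), Thbs2 at chr17:14885762-14914497 (minus), Thbs3 at chr3:89122487-89134144 (plus), Tnc at chr4:63878022-63965252 (minus) and Tnxb at chr17:34879431-34938789 (plus). On the same positions, Postn lies at chr3:54268530-54298458 (plus), Sparc at chr11:55285326-55314009 (minus), Fn1 at chr1:71624679-71692334 (minus), Ccn1 at chr3:145352731-145355736 (minus) and Ccn2 at chr10:24471340-24474581 (plus). These are spans of whole genes and are not to be set beside the GRCm38.p6 windows.

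The other genes of the same families were taken from a list of 22, of which 20 are rows of the table and 17 passed the filter. Of the 17, 14 were higher and 3 lower in the GB2 tumors, 7 with an unadjusted p under 0.05 and at least a 2-fold higher level (3.74% of all genes tested) and 0 with a 2-fold lower level (0.918%). For 7, each GB2 tumor lay above each PBS tumor (8.61% of all genes tested). Their median log2 fold change was 1.38, with a range of -0.99 to 2.85. Tnr and the 3 Spock genes had errors of 1.15 or more. No adjusted p of edgeR was under 0.05 among them. In DESeq2, Thbs4, Tnn, Tgfbi, Spp1, Smoc2 and Ccn3 passed the limits of a 2-fold difference and an adjusted p under 0.05. The largest DESeq2 adjusted p of these was 0.00293 (Ccn3), and 1.57% of the genes tested passed in this direction. The list was written with earlier results of these tumors known.

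Thbs4, a pentameric thrombospondin of tendon and injured muscle, had 1.89, 0.710 and 1.34 CPM with PBS and 9.30, 4.15 and 15.0 CPM with GB2. The groups did not overlap, and the log2 fold change was 2.85 ± 0.56 (edgeR adjusted p 0.231). Comp, the cartilage thrombospondin, had 0 counts in each PBS tumor and 12, 14 and 0 in the GB2 tumors, too few for the filter. Tnn (tenascin-W) was at 0.795, 0.738 and 0.806 CPM with PBS and 2.42, 2.14 and 3.61 CPM with GB2, a log2 fold change of 1.80 ± 0.34. Tnr, the tenascin of the nervous system, had 0 counts in 3 of the 6 tumors.

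Tgfbi, the other fasciclin domain protein of the list, was at 7.14, 8.71 and 3.92 CPM with PBS and 23.1, 22.2 and 43.0 CPM with GB2. Its log2 fold change of 2.16 ± 0.39 was close to that of Postn, and its groups were apart as well. Spp1 encodes osteopontin, which macrophages and tumor cells secrete. It was at 26.6, 21.1 and 16.6 CPM with PBS and 85.5, 59.6 and 57.8 CPM with GB2, with a log2 fold change of 1.66 ± 0.25 (edgeR adjusted p 0.186). Ibsp and Dmp1, bone matrix proteins of the same family, did not pass the filter.

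In the SPARC family, 8 of 8 genes had log2 fold changes above 0, with a median of 0.64 that was 1.34 without PBS tumor 1 and 0.37 with GB2 tumor 1 left out. Smoc2 was at 0.829, 1.08 and 0.990 CPM with PBS and 3.73, 2.48 and 5.68 CPM with GB2, a log2 fold change of 2.03 ± 0.39. Sparcl1, the closest relative of Sparc, had the lowest of the family (0.12). Smoc2 and Fstl1 were the 2 of these 8 genes for which each GB2 tumor lay above each PBS tumor, against 8.61% of the genes tested.

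In the CCN family, 2 genes were higher, and the other 4 had log2 fold changes from -0.24 (Ccn1) to -0.00 (Ccn4), each smaller than its SE. The median of the family was -0.02, which was 0.34 without PBS tumor 2 and 0.24 without PBS tumor 3. Ccn3 was at 0.406, 0.823 and 0.410 CPM with PBS and 2.50, 1.32 and 5.02 CPM with GB2, a log2 fold change of 2.43 ± 0.58. Ccn5 had 8, 33 and 18 counts with PBS and 93, 38 and 141 counts with GB2, and its CPM overlapped between the groups. Vtn (vitronectin), the adhesive partner of Fn1 in the list, had the lowest value of the relatives, -0.99 ± 0.71, with 84 counts in GB2 tumor 1 and 637 to 1151 in the other 5 tumors.

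The receptors of these proteins were read from a list of 20 genes, of which 18 were higher and 2 lower with GB2. Their median log2 fold change was 0.41, and it was 0.24 without PBS tumor 1 and 0.73 without PBS tumor 3. An unadjusted p under 0.05 with at least a 2-fold higher level was found for 6 of the 20, against 3.74% of all genes tested. These were Itgam (2.43) and Itgb2 (1.23), the chains of a myeloid integrin, Stab1 (1.78), a scavenger receptor of macrophages that takes up SPARC, Cacna2d1 (1.29), a neuronal thrombospondin receptor, Cd36 (1.20), and Itga4 (1.17), an integrin chain of leukocytes. Cd36, through which Thbs1 and Thbs2 act on vessels, was at 10.1, 11.1 and 8.29 CPM with PBS and 23.9, 20.8 and 23.0 CPM with GB2. Cd47, a receptor of thrombospondin-1, had the lowest log2 fold change of the list (-0.39). Of 19 genes of the TGF-beta pathway, 12 were higher and 7 lower, with a median of 0.14 that was 0.05 without PBS tumor 1 and 0.06 with GB2 tumor 2 left out. Lrrc32 (1.01), which holds latent TGF-beta at the cell surface, passed the same unadjusted limits. Ltbp2 had the highest log2 fold change (1.37) and Tgfb2 the lowest (-0.81).

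Of 17 regulators of YAP/TEAD and SRF, 12 were higher and 5 lower, and 0 passed the unadjusted limits, against 3.74% of all genes tested in the higher and 0.918% in the lower direction, with a median log2 fold change of 0.10 and a range from Tead1 (-0.59) to Mrtfa (0.39). That median was 0.01 or 0.16 when PBS tumor 1 or 2 was left out, and 0.03 or 0.06 when GB2 tumor 1 or 3 was. Tead1 was at 7.46 CPM in GB2 tumor 1 and between 88.1 and 110 CPM in the other 5. Of 18 further YAP target genes, 17 were tested, 14 were higher and 3 lower, and the median of 0.42 was 0.15 without PBS tumor 1 and 0.61 without PBS tumor 3. Ankrd1 (2.19), Nt5e (1.38) and Ccdc80 (1.37) passed the unadjusted limits (3.74% of all genes tested did so in this direction), and Ccn1 and Ccn2, which belong with these genes, did not.

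Markers of several cell types were higher in the same tumors. The 12 fibroblast markers, led by Col3a1 and Col1a1, summed to 425, 538 and 303 CPM with PBS and 1190, 1002 and 1382 CPM with GB2. All 12 were higher, beside 48.3% of all genes tested, 10 of them at an unadjusted p under 0.05 and at least 2-fold, beside 3.74%, and the ratio of the mean sums was 2.83. The 11 macrophage markers, led by Lyz2 and Cd68, summed to 77.7, 93.2 and 65.8 CPM with PBS and 260, 256 and 358 CPM with GB2, with 11 of 11 higher. The 9 endothelial markers summed to 76.2, 86.1 and 69.0 CPM with PBS and 151, 138 and 156 CPM with GB2, with 8 of 9 higher. For each of these 3 lists the sums of the groups were apart, and their part in the levels of the 10 genes was not tested.

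**Figure D3:**
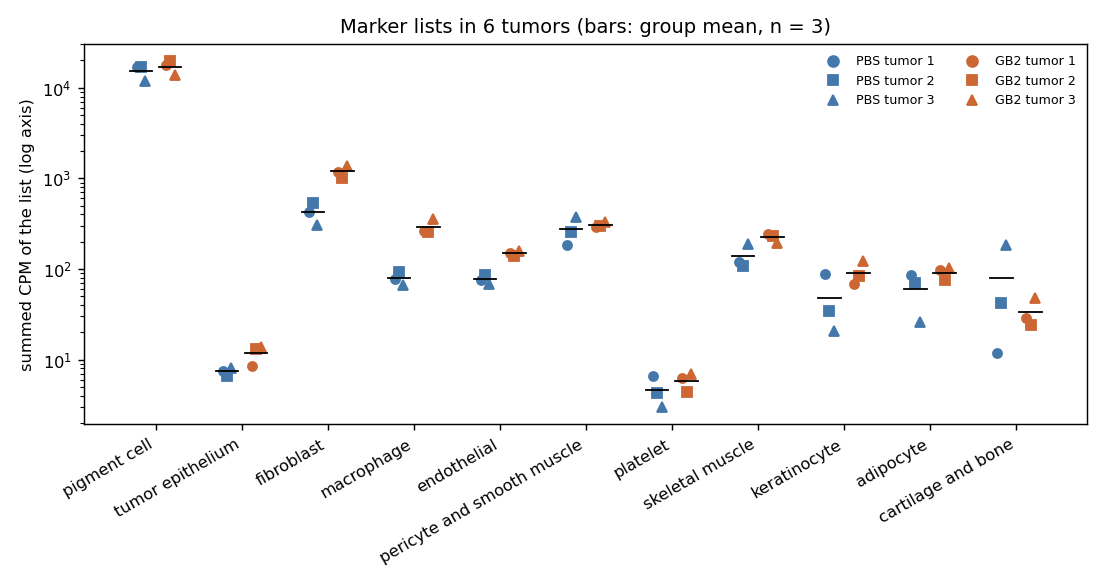
Summed CPM of the marker lists of each cell type in each tumor, on a log axis, with 1 point per tumor. The fibroblast, macrophage and endothelial sums of the GB2 tumors lie above those of the PBS tumors, as do the skeletal muscle sums, whereas the pericyte and smooth muscle sums overlap.

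The 8 skeletal muscle markers summed to 120, 108 and 187 CPM with PBS and 245, 233 and 195 CPM with GB2. These groups were apart too, with 8 of 8 markers higher, 1 of them at an unadjusted p under 0.05 and at least 2-fold (3.74% of all genes tested), and their part in the levels of the 10 genes was not tested. The pericyte and smooth muscle markers summed to 186, 258 and 375 CPM with PBS and 289, 298 and 327 CPM with GB2, and overlapped. Keratinocyte markers ran from 20.7 to 87.0 CPM with PBS and from 68.5 to 122 CPM with GB2, and adipocyte markers from 26.2 to 85.0 and from 75.9 to 101 CPM, both overlapping. The cartilage and bone markers reached 183 CPM in PBS tumor 3, beside 11.9 to 47.5 CPM in the other 5 tumors. Neutrophil markers were low but apart, from 1.92 to 4.20 CPM with PBS and from 8.39 to 11.0 CPM with GB2, with Ly6g at 0 in each tumor, and tenocyte markers from 1.20 to 4.68 CPM over all 6. The Schwann cell list, whose Sox10 and S100b pigment cells also use, summed to 883 to 1402 CPM with PBS and 1025 to 1332 CPM with GB2. The epithelial list was low and its sums were also apart, at 6.63 to 8.18 CPM with PBS and 8.52 to 13.8 CPM with GB2.

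The level of each gene was then given per 1000 CPM of the fibroblast markers of the same tumor, a ratio that does not depend on the scaling between libraries and was added after the data were seen. Most of that sum came from the collagen genes Col1a1, Col1a2 and Col3a1. They held 123.8, 113.5 and 146.0 of 424.8 CPM in PBS tumor 1, and 357.7, 295.9 and 421.5 of 1190 CPM in GB2 tumor 1. The ratio is thus largely one to collagen transcripts and is not a count of fibroblasts. Since the marker sum itself was 2.83 times as high with GB2, most genes were lower on this scale. Each GB2 tumor lay below each PBS tumor for 73.1% of the genes tested and above for 0.393%, and the median ratio of the means over all genes tested was 0.336. Thbs2 was at 8.20, 7.66 and 9.71 with PBS and 16.8, 15.8 and 18.5 with GB2, so the groups remained apart with a ratio of the means of 2.00. Tnc was at 47.3, 28.1 and 35.3 with PBS and 56.5, 56.7 and 78.3 with GB2, also apart, with a ratio of 1.73. Postn was at 53.8, 55.1 and 69.3 with PBS and 61.5, 76.6 and 106 with GB2, and its groups overlapped on this scale.

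Per fibroblast marker, 5 genes lay lower in each GB2 tumor than in each PBS tumor, namely Thbs1, Tnxb, Sparc, Ccn1 and Ccn2, beside 73.1% of all genes tested. Ccn1 was at 108, 72.5 and 61.4 with PBS and 22.3, 26.1 and 25.2 with GB2, a ratio of 0.305, and Ccn2 was at 59.0, 51.3 and 64.0 with PBS and 19.6, 19.9 and 19.1 with GB2, a ratio of 0.336, both close to the median of all genes. Thbs1, higher with GB2 in CPM, was lower on this scale as most genes were, with 75.8, 72.4 and 70.1 against 42.1, 45.0 and 49.7. Its ratio of 0.627 lay above the median of 0.336 over all genes tested, as did those of Sparc (0.502) and Tnxb (0.454). Fn1, Thbs3 and Postn overlapped. Per 1000 CPM of endothelial markers, Thbs2 (ratio 3.02), Tnc (2.61) and Postn (2.08) were apart and higher, and Ccn1 and Ccn2 apart and lower, beside 1.48% of the genes tested that were apart and higher and 60.6% apart and lower. Per 1000 CPM of macrophage markers, Thbs2 (1.57) was apart and higher and 6 genes were apart and lower, beside 0.128% and 81.1% of the genes tested. Thbs2 was thus the gene that was higher in each GB2 tumor in CPM and by all 3 marker sums, and these ratios, from markers that fibroblasts share with other stromal cells, were not tested.

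**Figure D4:**
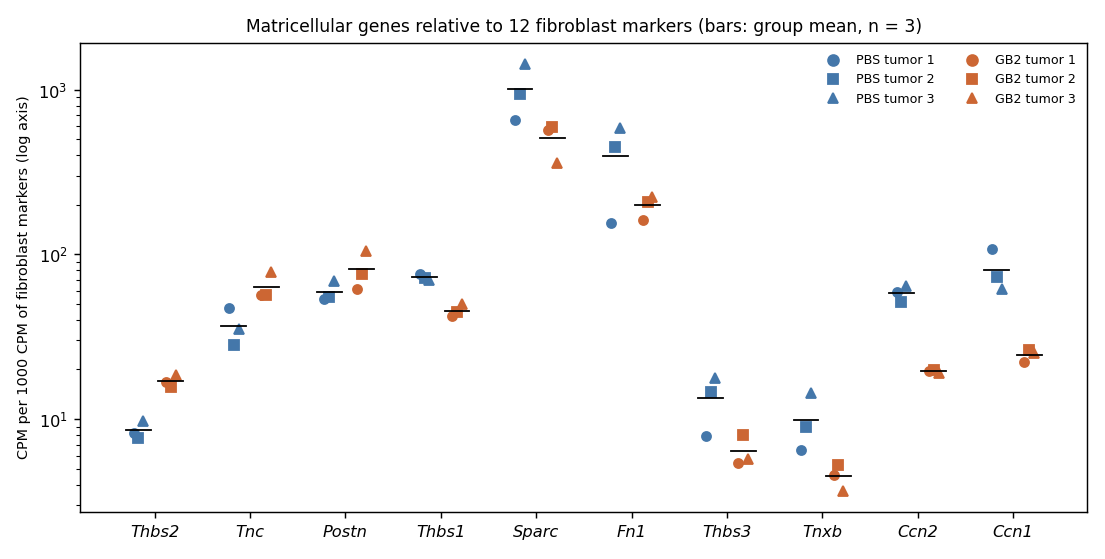
Level of each of the 10 genes per 1000 CPM of the summed fibroblast markers of the same tumor, on a log axis, with 1 point per tumor and a bar at the group mean. Thbs2 and Tnc lie higher in the GB2 tumors, whereas Thbs1, Tnxb, Sparc, Ccn1 and Ccn2 lie lower, as 73.1% of all genes tested do.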

How the data were processed

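RNA of 6 tumors (3 PBS, 3 GB2) was sequenced as poly-A selected, strand-marked, paired-end libraries. The counts the authors deposited are whole numbers per gene, not scaled between tumors, with about 4 counts to 1 read pair (among low values, 4 occurs 7017 times, 3 occurs 2984 times and 5 occurs 2017 times). The FPKM values deposited beside them are scaled by the length of each transcript and by sequencing depth. The submitters' processing notes name cutadapt 1.9, HISAT2 2.2.1, StringTie 2.1.6, DESeq2, edgeR and mm10, without their roles. Against the GRCm38 annotation (31999 gene IDs in common), the start and the end were equal for 641 genes (2.00%) and for 0 of the 10 genes here, so positions are those of the table.

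The fits were made with edgeR 4.0.16 in R 4.3.3 (filterByExpr with a minimum count of 10, TMM scaling, glmQLFit, glmQLFTest, Benjamini-Hochberg adjustment over all 19602 genes). Genes were called when they differed at least 2-fold with an adjusted p under 0.05, the limits of the study, whose methods name no test for them. CPM are counts scaled by library size and TMM factor, and standard errors follow from the test statistic. Exact permutation of 3 against 3 tumors cannot give a p under 0.1, so none was run. The 10 genes and all lists were chosen with earlier results of these data known. Named genes are the 10, and of each family or pathway list the highest, the lowest, those with an unadjusted p under 0.05 and at least 2-fold, and family members that failed the filter, and of each marker list the 2 most abundant and those at 0. Not every gene that this rule names is reported here. The remaining named genes were chosen after their values were seen. Promoter windows came from RefSeq. Alternatives were DESeq2 1.42.0, its size factors in edgeR, other filters, limma 3.58.1 on log2(FPKM + 1) and log2(FPKM + 0.1), counts divided by 4, the tumor number as a block, and leaving out each tumor. The computations were tested on simulated data. No sequencing batch is given in the sources used here.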

Additional observations from a re-analysis of the deposited data

How the results depend on the processing

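The number of genes called was 0 in edgeR and in each alternative but DESeq2, which called 380. With DESeq2 the log2 fold changes of Thbs2 (2.55), Tnc (2.35) and Postn (2.02) passed the limits, and their signs held in each alternative. The counts divided by 4 were fitted in edgeR alone, so the DESeq2 adjusted p were not checked on that scale. The median log2 fold change of the 10 genes lay between 0.27 (without PBS tumor 1) and 0.87 (without PBS tumor 2). Ccn2 turned to 0.03 with limma on log2(FPKM + 1) and to 0.03 on log2(FPKM + 0.1). Leaving out each tumor in turn gave -0.18 to 0.07 for Ccn2 and -0.53 to 0.03 for Ccn1, and 0.19 to 0.96 for Fn1. Leaving out each tumor also gave 2.35 to 2.70 for Thbs2, 2.02 to 2.60 for Tnc and 1.62 to 2.19 for Postn. With limma on log2(FPKM + 1), a scale that understates changes of low genes, Thbs2 was at 1.38, Tnc at 1.91 and Postn at 1.69. The causes were not tested.

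Genes with an unadjusted p under 0.05 and at least 2-fold lower numbered 180 in edgeR. There were 382 in DESeq2, 338 with no filter on low counts, 117 with a minimum count of 40, and 36 lower and 95 higher with limma on log2(FPKM + 1). Without PBS tumor 2 there were 310 lower, and without PBS tumor 3 there were 548. Tumors of the same number deviated from their group means with correlations of 0.0313, 0.154 and -0.245 over genes. With 3 tumors a group these values cannot decide whether the numbers pair the tumors, and the labels do not say. With the number as a replicate block, 0 genes were called, the median of the 10 genes was 0.64, and Thbs2 stood at 2.53, Tnc at 2.32 and Postn at 1.94. There were 3 tumors a group with a variation of 40.5% between them, and the size of difference that could be detected is not reported here.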
